A study of Homo sapiens with 36 samples.

Results

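TEAD proteins bind DNA, and YAP and TAZ, a pair of paralogous co-activators, reach many of their target genes through them. RNA was compared here between MDA-MB-231 cells in which TEAD was knocked down (TEADi, 2 libraries) and cells in which only YAP or only TAZ was knocked down (YAPi and TAZi, 2 libraries each). MDA-MB-231 cells are a long-cultured line of triple-negative breast cancer, lacking the estrogen and progesterone receptors and HER2 amplification, and every library comes from this 1 line. The members are these 6 of the 36 libraries in the series, picked by their titles alone. All 6 belong to the first of the study's MDA-MB-231 RNA sets, called set 1 here, and each received small interfering RNA (siRNA) in place of a gene deletion. The control siRNA libraries of set 1 were left out, because their RNA was selected differently, so values below are relative to a single knockdown and never to intact cells. The double knockdown of set 1 (YAPi_TAZi, 2 libraries) is given beside some values, on the same scale, without a test. Which TEAD family members the TEADi reagent was designed against is not given in the sources used here, nor is the time between transfection and harvest in this line. Nothing in the labels says that replicates are separate cultures, so p-values measure the spread between these libraries, which may be technical. In the main comparison YAPi and TAZi are pooled as 1 group, so the spread there also holds any difference between them. A gene on which they differ is harder to call in that comparison.

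The Hippo pathway is a kinase cascade that holds YAP and TAZ in the cytoplasm. When the cascade is off, the co-activators enter the nucleus, bind TEAD1 to TEAD4 and switch on genes such as ANKRD1, CCN1 and CCN2. YAP and TAZ can stand in for each other at many genes, whereas loss of TEAD would remove a DNA-binding partner that both share. The study proposes that AP-1 proteins and, less often, STAT3, which also bind DNA, can recruit YAP and TAZ too. The pathway is known for its role in cell growth and in organ size.

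Expected counts summed to between 1579689 and 2784605 per library over the 6 libraries. Normalized counts below are these counts divided by a size factor per library, so they can be compared between libraries but not between genes. Vimentin (VIM), a mesenchymal filament, ranged from 1776.1 to 2764.8 TPM (transcripts per 1e6, here rescaled over protein-coding genes only), and the progesterone receptor gene PGR had no count in any of the 6. SPARC, listed as a marker of the line, reached at most 2 counts. CDH1, the epithelial cadherin, and FOXA1, a luminal factor, reached at most 1 count each. Other genes listed as absent from the line were detected in every library, at 15.7 to 32.2 TPM for EPCAM (up to 39 counts), 7.38 to 15.8 for ERBB3 (up to 13 counts) and 2.28 to 5.82 for GATA3 (up to 14 counts). RNAs without a poly(A) tail made up 12.1 to 14.7% of the counts, and none of the 6 tested genes of that list was called (median log2 fold change 0.10). Libraries of replicate 1 and replicate 2 differ in the gap between gene length and effective length (48.0 and 74.6 bases). The replicate number entered the fits as a block, except where stated or where only 1 number remained.

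The study lists 1 siRNA sequence of its own for YAP1 and 1 for TAZ beside commercial pools, and whether the pools or these oligos gave the present libraries is not stated. They are shown as listed, and the place each matches is given below them.
YAP1 siRNA: gacaucuucuggucagaga
TAZ siRNA: acguugacuuaggaacuuu
The first matches the coding sequence of YAP1 in exon 2, at chr11:102114365-102114383 on the plus strand of hg38. The second matches WWTR1, the gene that encodes TAZ, in the coding part of exon 7, at chr3:149520887-149520905 on the minus strand.

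Of the 3 TEAD genes that could be tested, 2 were lower in TEADi than in the single knockdowns. TEAD1 lies at chr11:12674421-12944737 on the plus strand of hg38 and had the highest level per length of the family. Its normalized count was 198.4 and 196.2 in the TEADi libraries, 460.7 and 468.0 in YAPi, and 518.5 and 570.2 in TAZi. Both TEADi libraries lay below all 4 others, with a log2 fold change of -1.36 ± 0.18 (SE, adjusted p = 2.9e-11, DESeq2). With offsets from the effective lengths the difference was smaller, at -0.9 (adjusted p = 0.00035, DESeq2).

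TEAD2 (chr19:49340595-49362457, minus strand) had 2 counts in each TEADi library and 20 to 36 in the single knockdowns. The groups did not overlap, and the ratio of single knockdown to TEADi, scaled by size factors, was 10.9 (95% exact counting interval 4.12 to 40.7). DESeq2 called the difference (log2 fold change -3.43 ± 0.92, adjusted p = 0.00451), but gave no adjusted p in the 6 fits that left out 1 library, in which the log2 fold change was -3.56 to -3.28. TEAD4 (chr12:2959330-3040676, plus strand) had 0 and 1 counts in TEADi against 15 to 21 in the single knockdowns. The ratio was 31.4, with a counting interval of 5.47 to 1258.6. DESeq2 gave no adjusted p for it in the fit used throughout. edgeR called it lower (adjusted p = 0.0076), and DESeq2 gave an adjusted p of 0.017 with no replicate block and 0.022 with TMM size factors. These intervals cover counting error only.

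TEAD3 was the exception. Its normalized count was 45.3 and 26.9 in TEADi, 38.9 and 35.4 in YAPi, and 51.0 and 38.2 in TAZi. The groups overlapped, and the log2 fold change was -0.22 ± 0.42 (adjusted p = 0.873, DESeq2). Per length, TEAD1 stood at 45.7 TPM over protein-coding genes in TEADi (mean of 2 libraries), TEAD3 at 13.0, TEAD2 at 1.35 and TEAD4 at 0.325. In YAPi the corresponding levels were 83.3, 14.8, 19.1 and 12.1. TEAD1 therefore remained the most abundant family transcript in TEADi, ahead of TEAD3.

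**Figure D1:**
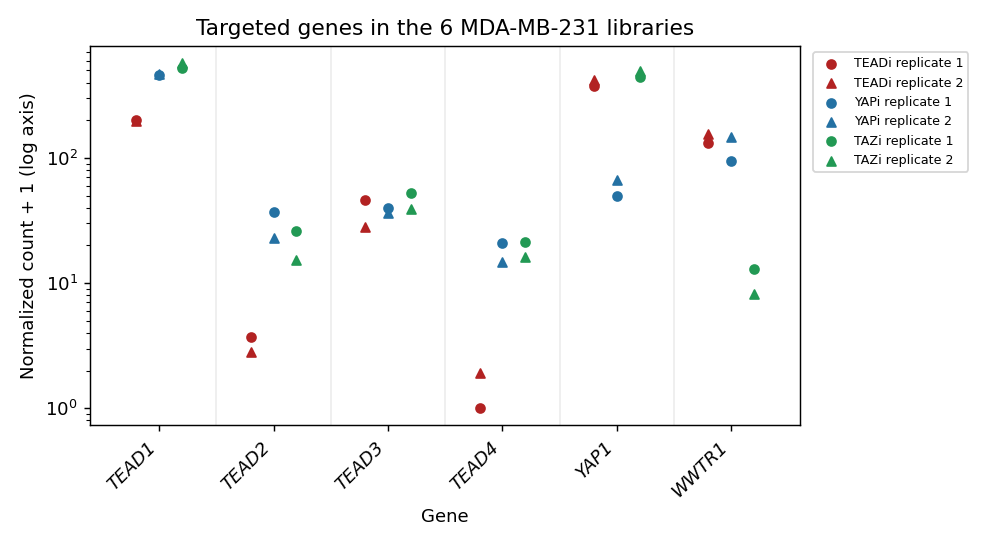
Normalized count plus 1 (log axis) of the 4 TEAD genes, YAP1 and WWTR1 in each of the 6 libraries, 1 point per library, circles for replicate 1 and triangles for replicate 2. TEADi points lie below the others for TEAD1, TEAD2 and TEAD4 and among them for TEAD3, while YAP1 is low in YAPi and WWTR1 in TAZi.

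The co-activators checked the labels of the single knockdowns. YAP1 had normalized counts of 48.9 and 65.4 in YAPi, 443.8 and 493.9 in TAZi, and 371.4 and 418.4 in TEADi. The YAPi libraries were the low ones, and TEADi against TAZi gave a log2 difference of -0.25 (adjusted p = 0.22, DESeq2). WWTR1 had 11.9 and 7.2 in TAZi, 92.7 and 147.2 in YAPi, and 130.5 and 155.0 in TEADi. The TAZi libraries were the low ones, and TEADi against YAPi differed by 0.27 on the log2 scale (adjusted p = 0.627, DESeq2).

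Between TEADi and the pooled single knockdowns, 549 of 10326 genes tested differed, or 5.32%, at an adjusted p under 0.01 (DESeq2, replicate number as a block). Of these, 165 were higher in TEADi (1.6% of genes tested) and 384 lower (3.72%). Protein-coding genes made up 536 of the 549. A change of at least 2-fold was seen for 86 of the higher and 294 of the lower genes, and of at least 4-fold for 9 and 26. Normalized counts of TEADi and the single knockdowns did not overlap for 546 of the 549, against 36.5% of all genes tested. The median log2 fold change over all genes tested was 0.01. The count depended on single libraries, and fewer genes were tested without them (5244 and 4794 without TEADi replicate 1 and 2). It was 78 without TEADi replicate 1, 53 without TEADi replicate 2, 328 without YAPi replicate 2, 334 without TAZi replicate 1 and 298 without TAZi replicate 2. With YAPi and TAZi as separate levels of the fit, 657 genes were higher and 800 lower than the mean of the 2. In that fit the difference between YAPi and TAZi is not counted as spread. An exact permutation of 2 libraries among 6 that ignores the replicate number cannot give a two-sided p below 0.067. One kept within replicate numbers has fewer arrangements and a higher floor. Single genes therefore rest on the model across all genes.

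The single knockdowns also differed from each other. A fit with 3 levels called 1142 genes for TEADi against YAPi (11.6% of those tested) and 1351 for TEADi against TAZi (13.1%). It called 503 for YAPi against TAZi (6.25%). With no replicate block the counts were 487, 617 and 154. The first 2 comparisons share the TEADi libraries, so their values are set side by side without a count of shared genes.

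Among the YAP/TAZ target genes, a list of 22 taken from general knowledge of the pathway, 20 could be tested. Of these, 7 were lower in TEADi, 0 were higher and 13 did not pass, with a median log2 fold change of -0.29. Over all genes tested, 3.72% were lower. ANKRD1, a cardiac ankyrin repeat protein and a classical YAP target, had the largest difference of the list. It had 38.6 and 71.7 normalized counts in TEADi, 399.9 and 480.7 in YAPi, and 474.6 and 473.7 in TAZi. TEADi lay far below both single knockdowns, and the double knockdown was lower again at 17.0 and 22.8. The log2 fold change was -3.05 ± 0.24 (adjusted p = 8.9e-33, DESeq2), an 8.27-fold difference, and it was -2.96 against YAPi alone and -3.07 against TAZi alone.

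CCN2, a secreted matricellular protein, had 26.6 and 20.6 in TEADi, 147.6 and 162.7 in YAPi, and 81.9 and 110.2 in TAZi. All 4 single-knockdown libraries lay above TEADi, and the double knockdown had 8.5 and 16.9. The log2 fold change was -2.42 ± 0.41 (adjusted p = 3.7e-07, DESeq2).

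CCN1, the close relative of CCN2, behaved differently. It had 496.6 and 475.7 in TEADi, 634.2 and 646.1 in YAPi, and 539.9 and 550.0 in TAZi, against 69.6 and 57.5 in the double knockdown. The TEADi libraries were the lowest of the 6 without passing the test (log2 fold change -0.29 ± 0.16, adjusted p = 0.345, DESeq2). Against YAPi alone the difference was -0.40 (adjusted p = 0.00227) and against TAZi alone -0.17 (adjusted p = 0.321).

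The 5 other targets that fell were AMOTL2, which binds and restrains YAP (-1.60 on the log2 scale), CCDC80, a matrix protein (-1.16), CRIM1, which binds bone morphogenetic proteins (-1.06), NT5E, the ecto-nucleotidase CD73 (-0.87), and F3, tissue factor (-0.85). AMOTL2 had 117.2 and 104.8 normalized counts in TEADi, 308.1 and 235.4 in YAPi, and 436.6 and 372.2 in TAZi. TEADi stood below every single-knockdown library and close to the double knockdown, at 112.2 and 109.0. NT5E had 848.0 and 872.6 in TEADi, and the double knockdown, at 1216.1 and 1459.3, was above it. With effective length offsets, CRIM1 (-0.76, adjusted p = 0.076) and CCDC80 (-0.8, adjusted p = 0.062) lost their call by DESeq2. NT5E lost it with edgeR (adjusted p = 0.011). Over the 7 other processing settings, 5 to 7 targets were called lower. With 1 library left out, CCN2, AMOTL2, F3, CRIM1, NT5E and CCDC80 did not keep their call in every fit, whereas ANKRD1 did. The log2 fold changes were then -2.73 to -2.11 for CCN2 and -1.74 to -1.45 for AMOTL2. For F3, CRIM1, NT5E and CCDC80 they were -0.88 to -0.82, -1.2 to -0.91, -0.96 to -0.76 and -1.2 to -1.12.

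The receptor tyrosine kinase AXL did not pass the pooled test (log2 fold change 0.30 ± 0.45, adjusted p = 0.832, DESeq2), and its single knockdowns lay apart from each other. It had 2585.3 and 2551.5 in TEADi, 2845.1 and 2640.9 in YAPi, and 1486.7 and 1388.1 in TAZi. TEADi was above both TAZi libraries and just below both YAPi libraries. The difference from TAZi was 0.84 (adjusted p = 6.6e-33) and from YAPi -0.09 (adjusted p = 0.39), both by DESeq2. MYOF and PTPN14 were likewise higher than in TAZi (0.65 and 0.60 on the log2 scale, adjusted p = 3.4e-12 and 6.8e-05) and did not pass against YAPi (0.16 and 0.01, adjusted p = 0.196 and 0.973). The other tested targets, TGFB2, IGFBP3, LATS2, GADD45A, ARHGEF17, ASAP1, RBMS3, FJX1 and DOCK5, had log2 fold changes between -0.98 and 0.09. FOXF2 and NUAK2 had no adjusted p. The direction of ASAP1, FJX1, RBMS3, DOCK5 and ARHGEF17 changed with the setting.

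**Figure D2:**
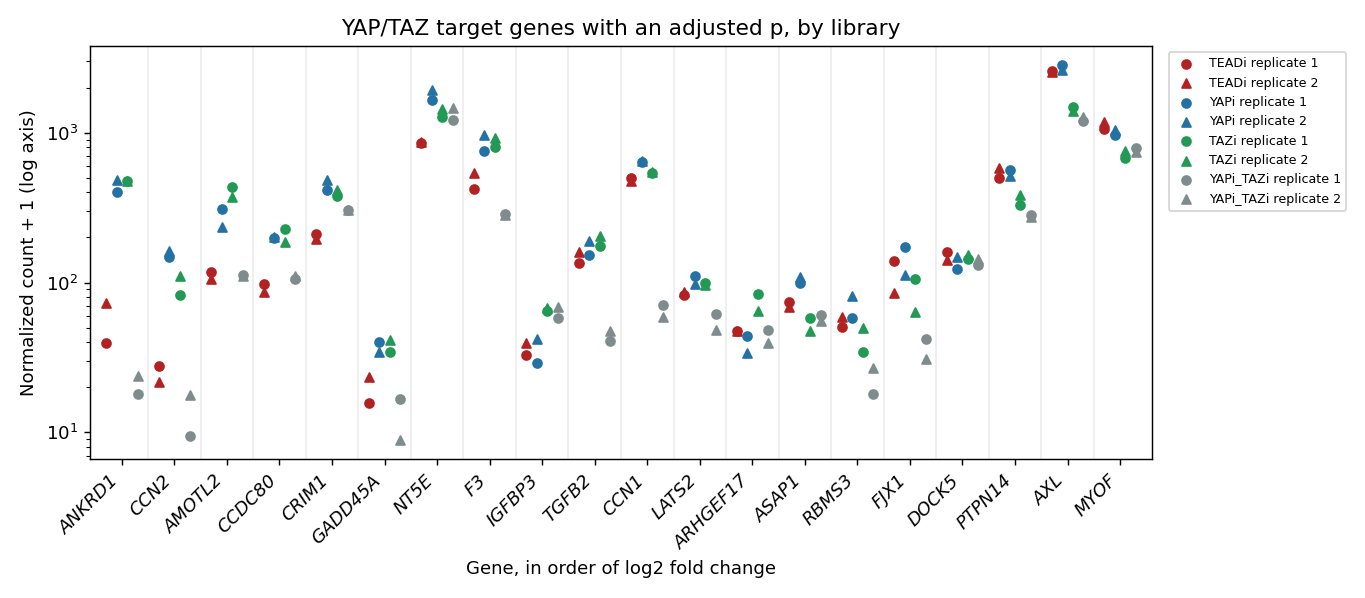
Normalized count plus 1 (log axis) of the 20 tested YAP/TAZ target genes in each library of TEADi, YAPi, TAZi and YAPi_TAZi, ordered by log2 fold change of TEADi over YAPi and TAZi together. ANKRD1 and CCN2 at the left have TEADi points well below both single knockdowns, whereas CCN1 has TEADi points just below them and the YAPi_TAZi points far lower.

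The upstream windows of ANKRD1, CCN2 and AMOTL2 are printed because these 3 differed most among the targets. Bases -250 to -1 from the RefSeq start site are given (GRCh38.p14, all on the minus strand), with CATTCC or its reverse complement GGAATG in capitals. AMOTL2 has 2 listed start sites, and the window of the second is shown, since that of the first holds no match.
ANKRD1: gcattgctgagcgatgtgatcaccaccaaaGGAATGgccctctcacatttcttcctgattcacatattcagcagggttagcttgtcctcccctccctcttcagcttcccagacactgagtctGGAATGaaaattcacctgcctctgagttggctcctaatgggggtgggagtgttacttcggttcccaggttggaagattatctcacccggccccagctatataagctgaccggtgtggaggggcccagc
CCN2: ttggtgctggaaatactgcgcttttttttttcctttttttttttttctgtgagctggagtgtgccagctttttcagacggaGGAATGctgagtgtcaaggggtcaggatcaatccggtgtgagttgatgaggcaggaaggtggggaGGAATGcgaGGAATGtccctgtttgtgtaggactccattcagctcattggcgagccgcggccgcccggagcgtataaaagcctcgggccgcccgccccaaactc
AMOTL2: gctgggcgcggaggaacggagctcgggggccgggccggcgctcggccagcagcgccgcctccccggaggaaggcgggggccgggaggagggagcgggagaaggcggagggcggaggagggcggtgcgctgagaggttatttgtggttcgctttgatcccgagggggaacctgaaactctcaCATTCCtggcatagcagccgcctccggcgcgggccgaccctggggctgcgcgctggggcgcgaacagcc
The windows lie at chr10:90921088-90921337, chr6:131951373-131951622 and chr3:134374448-134374697. They hold 2, 3 and 1 matches. Those of CCN2 start at -169, -104 and -95, and those of ANKRD1 at -220 and -128. The windows of F3, NT5E and CCDC80 hold no match, and CRIM1 is named only. Over -250 to +50, 9 of 18 promoters of the target list held the motif on either strand, against 14.0% of 35116 promoters in the table. The list was taken from general knowledge of the pathway, with earlier results of these data known, so this share is a description only. Of 7 promoters of the 6 target genes called lower that had a window, 3 held the motif. It was thus no more frequent among targets that fell than in the whole list. The motif share was 13.5% of 422 promoters of all genes called lower and 10.8% of 194 promoters of genes called higher. Over all genes tested it was 11.5% of 12108 promoters. A match is a description of the letters and does not show binding.

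Among the lists examined, those of DNA replication and mitosis held the most genes below the single knockdowns. Of 39 tested genes of DNA replication and E2F targets, 27 were lower, 0 were higher and 12 did not pass, with a median log2 fold change of -1.36. Of 38 genes of mitosis, 30 were lower, 0 were higher and 8 did not pass, with a median of -1.21. The share called lower over all genes tested was 3.72%. All 39 and all 38 had a fitted value below 0 against YAPi and against TAZi. With 1 library left out, the number of lower calls ranged from 4 to 20 and from 4 to 24, and the medians stayed between -1.43 and -1.28 and between -1.28 and -1.16. The fewest calls came when a TEADi library was left out, where 19 to 21 of the replication genes and 30 to 32 of the mitosis genes had an adjusted p. In bulk RNA, fewer cycling cells and less RNA per cell cannot be told apart.

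RRM1, the large subunit of ribonucleotide reductase, had 167.7 and 165.7 normalized counts in TEADi, 434.8 and 495.3 in YAPi, and 471.0 and 471.6 in TAZi. The TEADi libraries were well below all 4, and the double knockdown stood at 179.0 and 158.6. The log2 fold change was -1.49 ± 0.17 (adjusted p = 3.7e-15, DESeq2). RRM2, its small subunit (-1.35), MCM3, of the replicative helicase (-1.32), and CLSPN, a checkpoint adaptor (-2.17), fell as well.

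TOP2A, the topoisomerase that untangles chromosomes, had 418.0 and 447.1 in TEADi, 997.2 and 1287.7 in YAPi, and 1069.0 and 1218.2 in TAZi. Both TEADi libraries were far below every single-knockdown library, and the double knockdown stood at 343.8 and 391.6. The log2 fold change was -1.40 ± 0.14 (adjusted p = 2.4e-21, DESeq2). CENPF, of the kinetochore (-1.32), ANLN, the cytokinesis scaffold anillin (-1.21), and ASPM, of the spindle pole (-1.43), fell as well.

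Replication-dependent histone genes, a list added after the values were seen, moved the same way. Of 38 tested, 27 were lower and 0 higher, with a median of -1.31. Their near-identical copies share reads, so the value of any 1 gene is uncertain. CDKN1A, the cyclin-dependent kinase inhibitor p21, was higher, with 1320.6 and 1043.7 in TEADi, 575.4 and 494.4 in YAPi, and 477.0 and 388.8 in TAZi. TEADi lay above all 4 others and near the double knockdown, at 1236.0 and 1068.7. The log2 fold change was 1.28 ± 0.17 (adjusted p = 3.4e-12, DESeq2). It was the 1 gene called of 16 tested p53 targets, whose median was 0.24, and 5.32% of all genes tested were called.

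**Figure D3:**
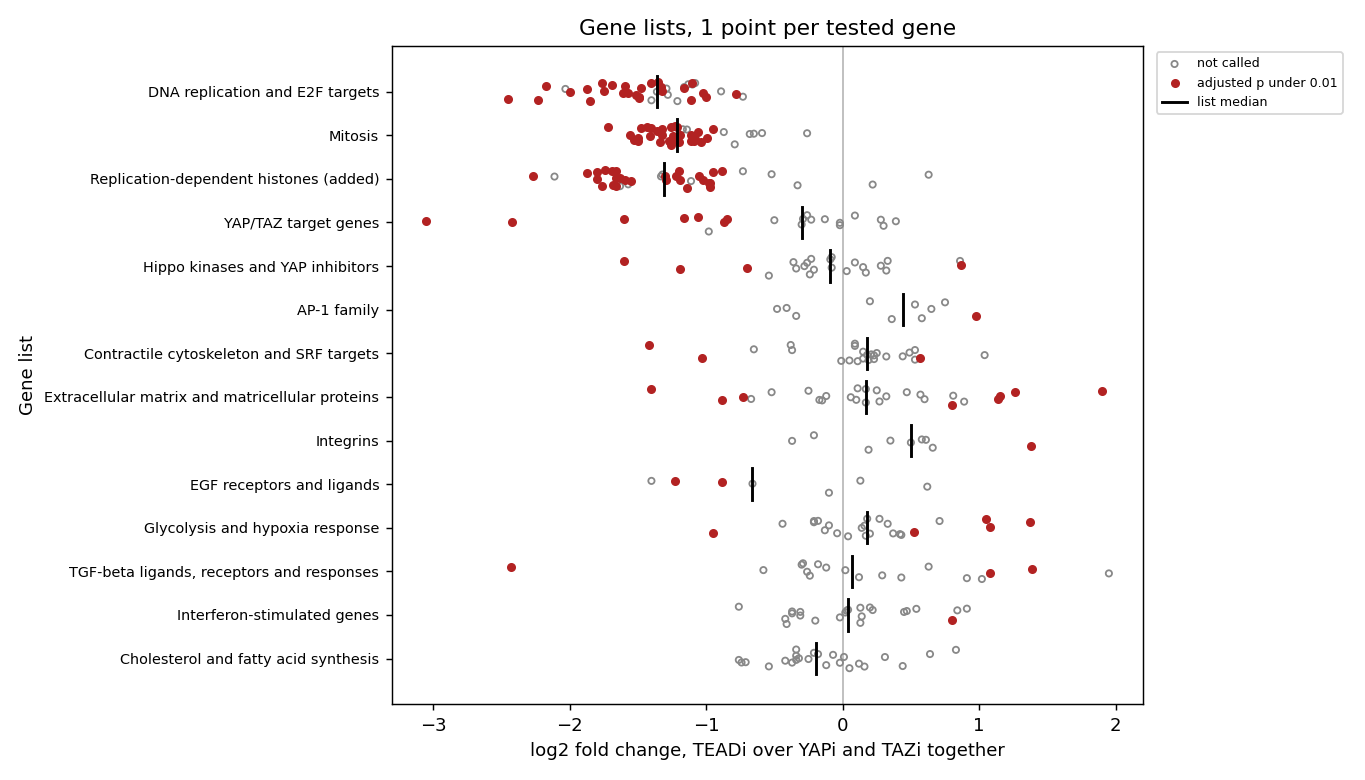
Log2 fold change of TEADi over YAPi and TAZi together for each tested gene of 14 lists, with called genes filled in red, other genes open and the list median as a bar. Replication, mitosis and histone genes lie almost entirely below 0 (medians -1.36, -1.21 and -1.31), while the other lists straddle it.

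Of the 10 protein-coding genes that fell most among non-overlapping genes averaging 30 normalized counts or more, ANKRD1 and CCN2 are YAP/TAZ targets, and DTL, CCNE2, FAM111B and H2AC4 belong to S phase. DTL, a substrate receptor of a ubiquitin ligase in replication, had 25.3 and 31.4 normalized counts in TEADi, 168.5 and 179.9 in YAPi, and 161.4 and 151.9 in TAZi. TEADi was far below all 4 (log2 fold change -2.53 ± 0.31, adjusted p = 7.3e-14, DESeq2). CCNE2, cyclin E2, changed by -2.45, FAM111B by -2.28 and the histone gene H2AC4 by -2.27. HPRT1, of purine salvage, changed by -2.47, PM20D2 by -2.66 and ARHGAP19, a GTPase-activating protein, by -2.64. The double knockdown was also far below the single knockdowns for DTL (39.8 and 46.6), CCNE2 (9.9 and 21.8), FAM111B (22.7 and 18.8) and H2AC4 (29.8 and 20.8). For PM20D2 (28.4 and 41.6) and ARHGAP19 (28.4 and 20.8) it lay between TEADi and the single knockdowns. For HPRT1 (41.2 and 29.7) it lay among the single knockdowns.

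SGCE, epsilon-sarcoglycan, stood apart from the double knockdown. It had 14.6 and 17.0 in TEADi, 58.8 and 68.2 in YAPi, 84.2 and 88.6 in TAZi, and 81.0 and 87.2 in YAPi_TAZi. TEADi was the one condition with low counts, and the log2 fold change was -2.24 ± 0.44 (adjusted p = 1.6e-05, DESeq2). The difference from YAPi_TAZi was not tested.

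ABCA1, which exports cholesterol from cells, rose most by the same rule. It had 491.2 and 513.4 in TEADi, 120.7 and 143.6 in YAPi, and 62.9 and 57.6 in TAZi. TEADi lay above every single-knockdown library and above the double knockdown, at 217.4 and 235.0. The log2 fold change was 2.39 ± 0.36 (adjusted p = 6.5e-09, DESeq2), or 1.93 against YAPi and 3.08 against TAZi. None of 24 tested genes of cholesterol and fatty acid synthesis was called, and their median was -0.19.

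AHNAK2, a large scaffold protein, had 1188.8 and 1151.2 in TEADi, 306.1 and 313.5 in YAPi, and 276.5 and 244.1 in TAZi. The groups were far apart (log2 fold change 2.04 ± 0.16, adjusted p = 1e-31, DESeq2). The double knockdown lay between TEADi and the single knockdowns, at 544.1 and 445.1. Other genes among those that rose most were CFB, complement factor B (2.15), RRAD, a small GTPase (2.10), SORBS2, an actin-associated adaptor (2.07), PTGES, a prostaglandin E synthase (2.05), GFPT2, of hexosamine synthesis (2.03), RAB27B, of vesicle secretion (1.96), and SIPA1L2 (1.91). SORBS2, SIPA1L2 and ARHGAP19 had no adjusted p in the 6 fits with 1 library left out, in which their log2 fold changes were 1.82 to 2.28, 1.78 to 2.11 and -2.70 to -2.56. HPRT1 had one in 1 of these fits, where it was called, and its log2 fold changes were -2.96 to -2.19.

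**Figure D4:**
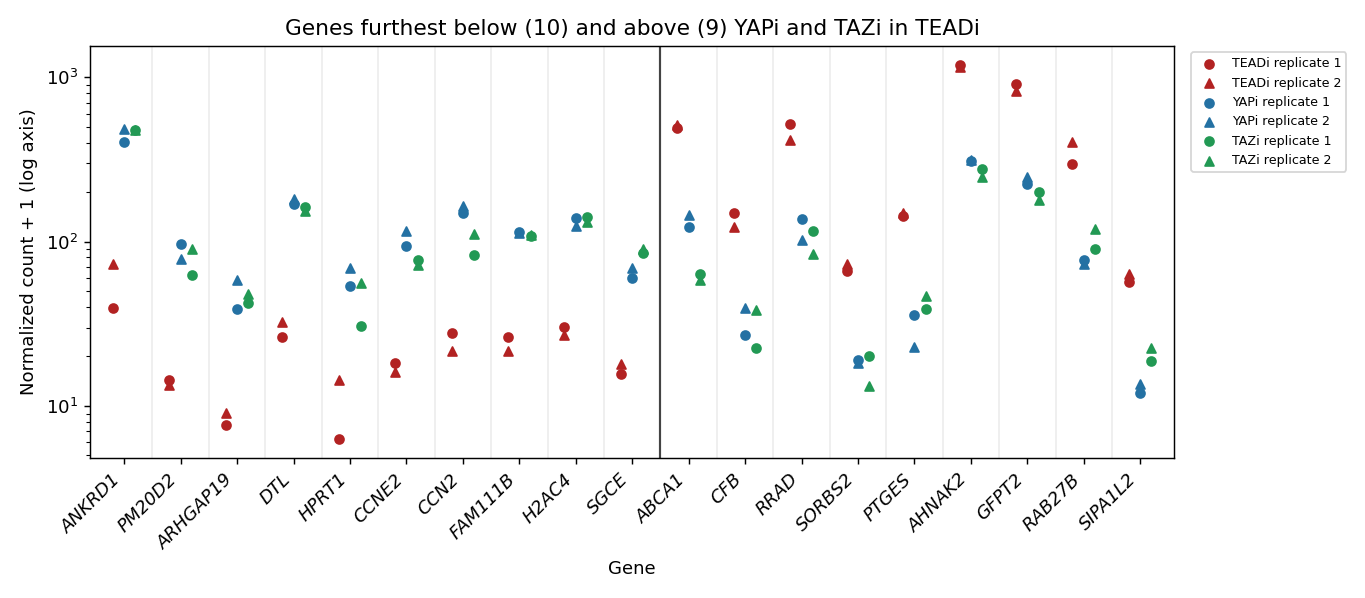
Normalized count plus 1 (log axis) in each of the 6 libraries for the 10 protein-coding genes that fell most and, right of the vertical line, 9 of those that rose most in TEADi. TEADi points do not overlap the YAPi and TAZi points for any of the 19, which the rule for naming them required.

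Of 23 tested Hippo pathway kinases and YAP inhibitors, 3 were lower and 1 was higher (median -0.09). Over all genes tested, 3.72% were lower and 1.6% higher, and these shares stand beside every list below. FRMD6, an upstream membrane protein of the pathway, changed by -1.19, MOB1A, a LATS co-activator, by -0.70, and AMOTL2 is given above. MAP4K4, a kinase upstream of LATS, was higher by 0.87. It had 899.9 and 964.9 in TEADi, 516.6 and 541.6 in YAPi, and 472.2 and 513.3 in TAZi, with no overlap. The double knockdown had 787.1 and 859.5. MOB1A lost its call with effective length offsets (-0.49, adjusted p = 0.071, DESeq2). With 1 library left out, MOB1A and MAP4K4 did not keep their call in every fit (-0.71 to -0.68 and 0.84 to 0.9). LATS1, LATS2, NF2 and SAV1 lay between -0.36 and 0.03 and did not pass.

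AP-1 factors, which bind DNA beside TEAD at many enhancers, had a median of 0.45 over 10 tested genes. JUN was the 1 gene called, with 652.3 and 606.5 in TEADi, 333.1 and 310.8 in YAPi, and 329.9 and 303.8 in TAZi. TEADi was the high group, with a log2 fold change of 0.98 ± 0.15 (adjusted p = 8.3e-09, DESeq2). The double knockdown had 504.4 and 490.7. With 1 library left out, JUN did not keep its call in every fit (0.97 to 0.99). FOSL1 and FOSL2 stood at -0.41 and -0.34 and did not pass.

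Matrix genes went both ways. Of 27 tested matrix genes, 5 were higher and 3 lower (median 0.17). COL5A1, a fibrillar collagen, changed by 1.26, TNC, tenascin C, by 1.15 and THBS1, thrombospondin 1, by -0.73. ITGA2, the alpha 2 integrin that binds collagen, was the 1 of 9 tested integrins called (list median 0.5). It had 789.4 and 852.0 in TEADi, 265.3 and 312.6 in YAPi, and 331.0 and 349.2 in TAZi, without overlap (log2 fold change 1.38 ± 0.17, adjusted p = 2.8e-14, DESeq2). The double knockdown, at 298.4 and 342.0, lay among the single knockdowns. Of 25 tested contractile and SRF target genes, 19 had a log2 fold change above 0 and 6 below (median 0.18). CNN3, calponin 3 (-1.03), and SRF, the serum response factor (-1.42), were called lower, and FLNA, filamin A, higher (0.57). FLNA lost its call in 4 of 7 other processing settings, with a log2 fold change of 0.49 to 0.67 over all alternatives.

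Of 7 tested EGF receptors and ligands, the ligands HBEGF (-1.23) and EREG (-0.88) were lower and 0 were higher (median -0.66). Of 18 tested genes of the TGF-beta pathway, LTBP1, which binds latent TGF-beta (1.39), and SKIL, a SMAD repressor (1.08), were higher, and FST, follistatin (-2.43), was lower. Of 24 tested genes of glycolysis and the hypoxia response, 4 were higher and 1 lower (median 0.17). They include VEGFA, the angiogenic factor (1.05), PFKFB4 (1.37) and NDRG1 (1.08) among the higher and PGAM1, phosphoglycerate mutase (-0.95), which has near-identical copies in the genome. Of 11 tested genes of epithelial-mesenchymal transition, the membrane protease MMP14 was higher (0.78) and KRT8, keratin 8, which also has near-identical copies, lower (-0.50). With 1 library left out, KRT8 lost its call in all 6 fits (-0.53 to -0.48), EREG lost it in 4 (-1.04 to -0.71 over the 6), and FST had no adjusted p in any (-2.52 to -2.38).

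STAT2 was the 1 gene called of 23 tested interferon-stimulated genes (0.80, median 0.04), and CEBPB the 1 of 20 tested genes of the ATF4 and unfolded protein response (0.85, median -0.07). In both lists the share called was near the 5.32% of all genes tested. With 1 library left out, STAT2 lost its call in all 6 fits (0.74 to 0.86) and CEBPB in 5 (0.77 to 0.94 over the 6). Of 16 tested inflammatory cytokines and chemokines, 0 were called (median 0.05), and of 12 tested mitochondrially encoded mRNAs, 0 were called (median 0.04).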

How the data were processed

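Total RNA of MDA-MB-231 cells was made into libraries with the TruSeq Ribo Profile kit. The authors aligned trimmed reads with STAR to GENCODE version 30, allowing a read at most 20 alignments, and used RSEM for quantification (build hg38). They deposited expected counts, which are estimated reads per gene and not normalized, with TPM, gene length and effective length. Deposited TPM was unsuited to comparing replicates: 4167 identifiers absent from GENCODE version 44, many very short, took 52.2% of TPM in TEADi replicate 1 and 2.48% in TEADi replicate 2 (3.94 and 0.417% of counts). Levels per length were therefore rescaled over protein-coding genes of the nuclear chromosomes.

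Expected counts were rounded and fitted with DESeq2 1.42.0 in R 4.3.3, with median-of-ratios size factors, the replicate number as a block and Benjamini-Hochberg adjusted p under 0.01. edgeR 4.0.16 served as an alternative. Same-numbered libraries deviated together (r = 0.725 to 0.771 over 5000 genes). A local dispersion fit replaced the parametric one where DESeq2 required it. Names and positions came from GENCODE version 44, which held 93.1% of identifiers. Named genes were the TEAD genes, YAP1, WWTR1, every YAP/TAZ target, the 10 protein-coding genes that rose and the 10 that fell most (normalized counts averaging 30 or more, without overlap), and up to 4 called genes per other list, of which 1 gene is not reported here. Members and lists were chosen with earlier results of these data known. The fitting code was tested on simulated data, in which unchanged genes made up a larger share of the calls than the threshold allows and many changed genes were missed, so a gene that did not pass may still differ.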

Additional observations from a re-analysis of the deposited data

How the results depend on the processing

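For TEADi against YAPi and TAZi together, the 549 calls became 447 with edgeR, 577 with no replicate block, 574 with TMM size factors, 549 with size factors from protein-coding genes, 584 with a mean count filter of 10, 392 with effective length offsets and 571 with all 8 libraries. They became 1457 with YAPi and TAZi as separate levels and 871 at an adjusted p under 0.05. With 1 library left out they ranged from 53 to 370, and within replicate 2 alone or replicate 1 alone (without replicate 1 or 2) they were 37 and 22. Where 1 TEADi library remained, it was assumed to vary like the other groups. Calls for TEADi against YAPi (1142) became 2111 with edgeR, 487 with no replicate block and 387 with effective length offsets. Calls for TEADi against TAZi (1351) became 2445, 617 and 519 under the same settings, and those for YAPi against TAZi (503) became 1024, 154 and 132. The cause of these differences was not tested. The motif share of genes called lower was 11.6% over -250 to -1.

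Of 60 called genes named here, 0 changed direction, 46 kept their call in all 7 other settings and 13 lost it in at least 1. With 1 library left out, 18 kept it in all 6 fits, 31 lost it in at least 1, and 11 lost it in none but had no adjusted p in some. Among genes that were not called, the direction turned with 1 library left out for TEAD3 (-0.46 to 0.01), DOCK5 (-0.09 to 0.26), ARHGEF17 (-0.43 to 0.02), ASAP1 (-0.34 to 0.19), FJX1 (-0.17 to 0.19) and RBMS3 (-0.17 to 0.18, and 0.01 with effective length offsets). TEAD4 had an adjusted p only with edgeR (0.0076), with no replicate block (0.017) and with TMM size factors (0.022).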
